A study of Mus musculus with 5 samples.

Results

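The spindle assembly checkpoint genes *Ttk*, *Bub1*, *Bub1b*, *Bub3*, *Mad1l1*, *Mad2l1* and *Trip13* were examined, 7 of the 19938 genes measured in 6DT1 cells, a highly metastatic mouse mammary carcinoma line. They were taken by name as the core of the pathway, and each had a single probe set with 1 gene symbol. The *Arid4b* knockdown cohort held lines H3 and H4 (n = 2), which carried lentiviral hairpins against *Arid4b* in the pLKO.1 vector and had low ARID4B protein, at 0.19 and 0.15 of the scrambled line by densitometry. The control cohort (n = 3) held line H5, whose *Arid4b* hairpin left ARID4B at 1.02 of the scrambled line, the line with the scrambled hairpin in that vector, and untransduced cells at 1.09. All lines but the untransduced one had been selected with puromycin. The stable lines were pools of clones, so each is 1 population of 1 parental line, and each was arrayed once. The value table does not state its scale. Its values were read as log2 expression because RMA, the method named for them, returns log2 values, and every fold change and percentage of control below rests on that reading.

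The checkpoint holds a dividing cell before anaphase until every chromosome is attached to the spindle. At an unattached kinetochore the kinase TTK (also called MPS1) and the kinase BUB1 mark the site, BUB3 brings BUB1 and BUBR1, the product of *Bub1b*, to it, and MAD1 (*Mad1l1*) holds MAD2 (*Mad2l1*) there. MAD2, BUBR1, BUB3 and CDC20 then form the mitotic checkpoint complex, which blocks the anaphase promoting complex, and the ATPase TRIP13 takes MAD2 out of that complex again. Many of these genes are transcribed mainly in G2 and mitosis, so in dividing cells their mRNA also follows how many cells are in those phases.

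The promoters of 5 of the genes are shown because the letters in them can be set beside how far each mRNA was lowered. They are RefSeq sequences of build GRCm38.p6, written from 120 bases before the transcription start to 30 bases after it, with motifs in capitals. The motifs searched on both strands were the cell cycle homology region in its usual forms TTTGAA and TTTAAA and in the variants CTTGAA and TTCGAA, and the CCAAT box; none overlapped another.
Ttk promoter, chr9:83834569-83834718, plus strand: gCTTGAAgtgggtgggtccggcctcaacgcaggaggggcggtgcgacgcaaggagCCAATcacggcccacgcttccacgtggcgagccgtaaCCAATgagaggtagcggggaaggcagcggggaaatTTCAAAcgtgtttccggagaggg
Bub1 promoter, chr2:127831830-127831979, minus strand: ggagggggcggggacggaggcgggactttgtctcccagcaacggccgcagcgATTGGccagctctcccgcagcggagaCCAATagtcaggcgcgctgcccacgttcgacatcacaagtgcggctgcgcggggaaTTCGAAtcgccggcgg
Trip13 promoter, chr13:73937738-73937887, minus strand: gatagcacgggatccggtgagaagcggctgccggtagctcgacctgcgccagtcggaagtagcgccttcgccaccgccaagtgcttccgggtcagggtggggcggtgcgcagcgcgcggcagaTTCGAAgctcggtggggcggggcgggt
Mad2l1 promoter, chr6:66535101-66535250, plus strand: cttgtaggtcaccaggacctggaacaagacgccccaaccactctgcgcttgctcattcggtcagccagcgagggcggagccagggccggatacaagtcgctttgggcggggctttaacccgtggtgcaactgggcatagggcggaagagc
Bub3 promoter, chr7:131560250-131560399, plus strand: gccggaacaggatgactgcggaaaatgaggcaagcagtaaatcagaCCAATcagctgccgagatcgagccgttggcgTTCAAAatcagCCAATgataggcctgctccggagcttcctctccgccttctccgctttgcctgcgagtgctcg
Positions give the first base of a match, counted from the start. *Ttk* had a usual homology region at 8, the variant CTTGAA at -119, and CCAAT boxes at -65 and -28. *Bub1* had the variant TTCGAA at 15 and CCAAT boxes at -68 and -42, and *Trip13* had only the variant TTCGAA, at 4. *Bub3*, the gene with the smallest difference below, held a usual homology region at -43 between CCAAT boxes at -74 and -32, whereas the window of *Mad2l1*, whose mRNA was at 52.7% of the control level, held none of these letters. In the full windows of 300 bases, *Bub1b* had a usual region at 41, a variant at -188 and a CCAAT box at -113, and *Mad1l1* had no match at either of its 2 annotated starts. Of the genes with a usual region, *Ttk* was at 45.3%, *Bub1b* at 43.6% and *Bub3* at 69.8% of the control level. Of those without any match, *Mad2l1* was at 52.7% and *Mad1l1* at 63.3%. A link between motifs and differences was not tested. A second *Bub3* start, downstream of the first, had the same matches in its window. Of all 32851 RefSeq windows of this length, 27.6% held TTTGAA or TTTAAA, 14.5% held CTTGAA or TTCGAA and 37.4% held CCAAT, so that such matches are common, and a match is not evidence of a bound site.

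Few facts of the arrays bear on these values. *Arid4b* itself read 6.88 in line H3 and 7.35 in line H4, whereas the controls read 8.24 (H5), 8.34 (scrambled) and 8.36 (untransduced), so that both knockdown lines were lower. The H3 array had an SD of 2.25 and a median of 6.35 over its probe sets, and the other arrays SDs of 2.29 to 2.30 and medians of 6.24 to 6.25. Of the epithelial markers, *Krt8* lay between 11.8 and 12.3 in the 5 lines and *Krt18* between 11.6 and 11.7, while *Epcam* lay between 5.61 and 5.75 and *Cdh1* between 6.05 and 6.16, below the array medians, as did *Krt5* and *Krt14*. *Krt19* moved most of the 7 epithelial markers, with 7.89 in H3 and 7.26 in H4 against 7.72 to 8.35 in the control lines. Its log2 fold change was -0.52 (standard error 0.28) and did not pass the unadjusted threshold. The 7 macrophage and leukocyte markers had median deviations from the control mean of 0.09 in H3 and 0.02 in H4, and the 7 fibroblast and endothelial markers 0.07 and 0.01. Among these only *Csf1r* passed the unadjusted threshold, as higher, at 0.20 (standard error 0.06), with all its values below the array medians. *Cd14* read 8.10 in H3 and 8.69 in H4, against 8.18 to 8.60 in the control lines. Over all genes 1517 were lower (7.61%) and 866 higher (4.34%) in the knockdown cohort at an unadjusted p under 0.05 from limma, and none passed after Benjamini-Hochberg adjustment. The lower genes were 63.7% of those calls, against 80.0% with array medians subtracted and 50.6% after a further quantile normalization.

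In all 7 checkpoint genes both knockdown lines lay below every control line, a pattern that 13.5% of all genes showed. At an unadjusted p under 0.05 from limma 6 of the 7 were lower and none was higher, where 7.61% of all genes were lower and 4.34% higher. The exception was *Mad1l1*. When the change of the proliferation markers described below was first subtracted from every gene, a setting chosen after seeing the data, only *Trip13* passed as lower, where 0.0802% of all genes were lower and 88.2% higher. *Bub3* and *Mad1l1* then had differences of 0.28 and 0.14, above 0 but below the median of 0.84 over all genes in that setting. In the deposited values no checkpoint gene passed after adjustment over all genes, and their adjusted p from limma ran from 0.267 to 0.441. Log2 fold changes lay between -1.42 for *Trip13* and -0.52 for *Bub3*, with a median of -1.10 over the 7 genes against 0.03 over all genes. Fewer cells in G2 and mitosis and less mRNA per cell cannot be told apart in these bulk samples.

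**Figure D1:**
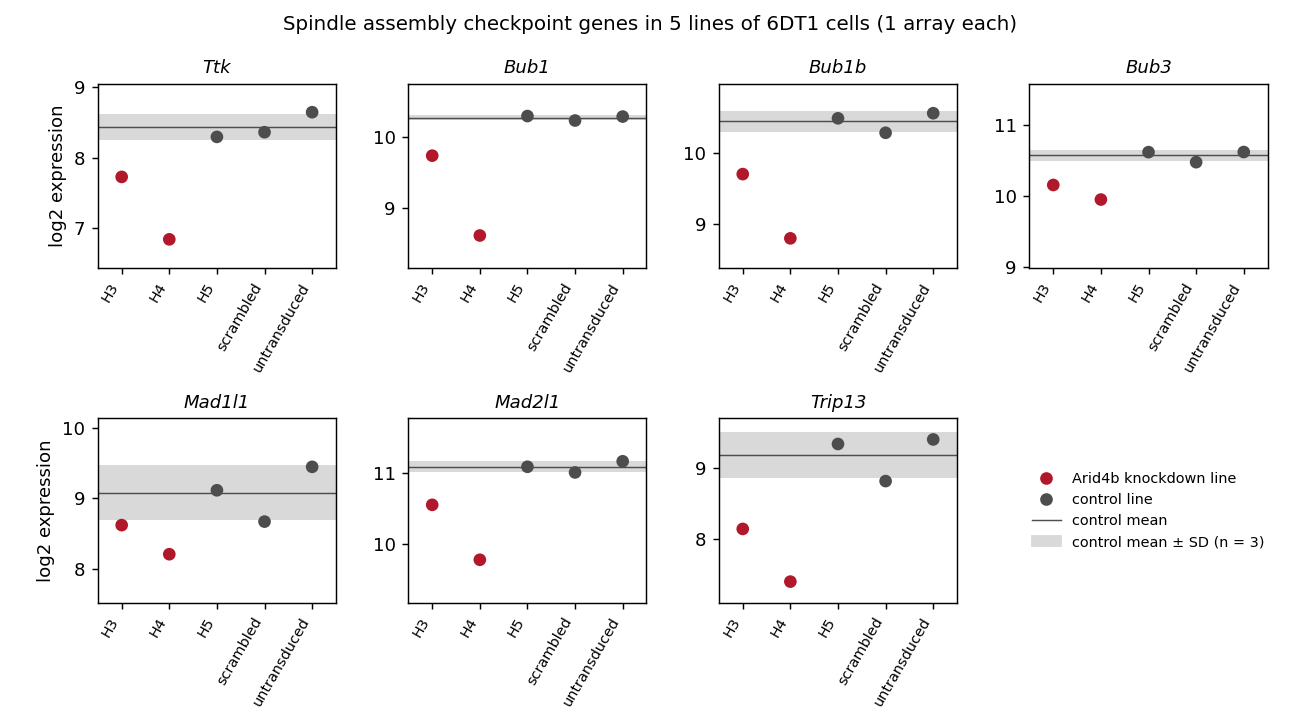
Log2 expression (vertical axis, the same span in each panel) of the 7 checkpoint genes in each of the 5 lines (horizontal axis), with 1 point per line and array, *Arid4b* knockdown lines in red and control lines in grey; the line and band are the control mean ± SD (n = 3). H4 is the lowest line in every panel, and H3 lies below all control lines, by 0.05 in *Mad1l1* and by 0.67 in *Trip13*.

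Of the kinases that start the signal, *Ttk* read 7.73 in line H3 and 6.85 in line H4, whereas the controls read 8.29 (H5), 8.36 (scrambled) and 8.64 (untransduced). The cohorts did not overlap, and H3 stood 0.56 below the lowest control line. Between the cohorts the log2 fold change was -1.14 (standard error 0.29, 95% interval -1.91 to -0.37, adjusted p = 0.317 from limma), or 45.3% of the control level. *Ttk* passed the unadjusted threshold in each of the 5 fits that left out 1 line, but its size depended on the knockdown line kept, at -0.70 without H4 and -1.58 without H3.

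*Bub1* read 9.73 in line H3 and 8.61 in line H4, whereas the controls read 10.29 (H5), 10.23 (scrambled) and 10.28 (untransduced). The control lines lay within 0.06 of each other, the narrowest control range of the 7 genes, while the knockdown lines were 1.13 apart, the widest gap between H3 and H4. H3 retained 69.0% of the control level and H4 31.6%. The log2 fold change of the cohort was -1.10 (standard error 0.34, 95% interval -2.00 to -0.19, adjusted p = 0.356 from limma). Without H4 it was -0.54 and without H3 -1.66. The call was lost without H5, without the scrambled line and without the untransduced line, with log2 fold changes of -1.09, -1.12 and -1.09 and unadjusted limma p of 0.0787, 0.0706 and 0.0775.

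Among the genes of the mitotic checkpoint complex, *Bub1b* read 9.70 in line H3 and 8.79 in line H4, whereas the controls read 10.49 (H5), 10.28 (scrambled) and 10.56 (untransduced). Its log2 fold change was -1.20 (standard error 0.29, 95% interval -1.96 to -0.43, adjusted p = 0.313 from limma). It kept its call in every fit that left out a line, at -0.74 without H4 and -1.65 without H3. H3 retained 59.8% and H4 31.9% of the control level, close to the 61.4% and 33.4% of *Ttk*.

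*Mad2l1* read 10.56 in line H3 and 9.78 in line H4, whereas the controls read 11.09 (H5), 11.01 (scrambled) and 11.17 (untransduced). The cohorts were 0.46 apart at their nearest lines, and the control SD was 0.08. The log2 fold change was -0.92 (standard error 0.24, 95% interval -1.56 to -0.29, adjusted p = 0.325 from limma), which is 52.7% of the control level. Without H4 it was -0.54 and without H3 -1.31, and both passed the unadjusted threshold. Without the untransduced line it was -0.88, with an unadjusted limma p of 0.0526.

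*Bub3* had the smallest difference of the 7 and the smallest unadjusted p. It read 10.16 in line H3 and 9.95 in line H4, whereas the controls read 10.62 (H5), 10.48 (scrambled) and 10.62 (untransduced). The knockdown lines were 0.21 apart, the closest of any checkpoint gene, and kept 74.9% and 65.0% of the control level. As a log2 fold change this was -0.52 (standard error 0.09, 95% interval -0.75 to -0.29, adjusted p = 0.267 from limma). It passed the unadjusted threshold in each fit without 1 line.

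*Mad1l1*, which encodes the kinetochore anchor of MAD2, was the gene that did not pass. It read 8.62 in line H3 and 8.21 in line H4, whereas the controls read 9.12 (H5), 8.67 (scrambled) and 9.45 (untransduced). H3 lay only 0.05 below the scrambled line, while the control lines spanned 0.77, so that H3 and the scrambled line did not differ beyond the control SD of 0.39. The log2 fold change was -0.66 (standard error 0.27, 95% interval -1.37 to 0.05, adjusted p = 0.441 from limma). Without the scrambled line it was -0.86, with an unadjusted limma p of 0.019.

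*Trip13*, which resets MAD2, had the largest difference. It read 8.14 in line H3 and 7.40 in line H4, whereas the controls read 9.34 (H5), 8.81 (scrambled) and 9.40 (untransduced). Although its control SD was 0.32, second to that of *Mad1l1*, H3 stood 0.67 below the scrambled line, the widest gap between the cohorts among the 7. The log2 fold change was -1.42 (standard error 0.30, 95% interval -2.21 to -0.63, adjusted p = 0.292 from limma), or 37.5% of the control level. Without H4 it was -1.05, with an unadjusted limma p of 0.0515.

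**Figure D2:**
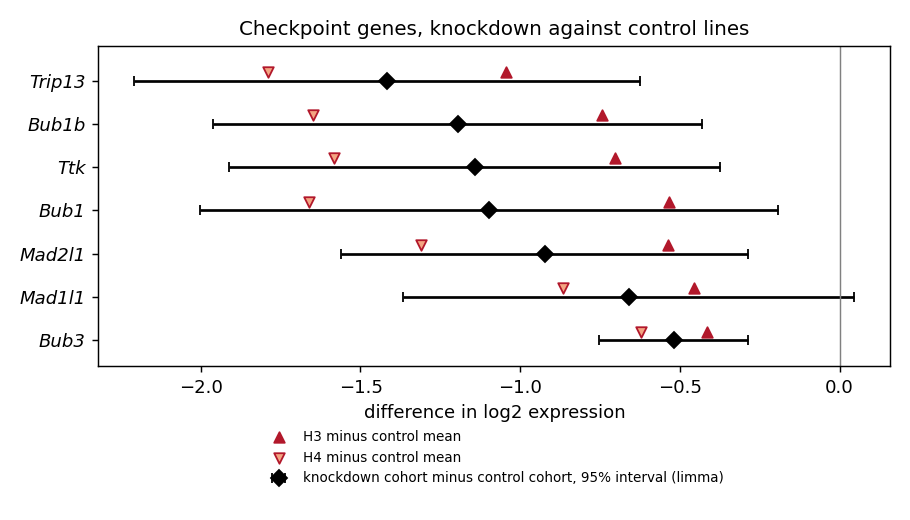
Difference in log2 expression from the control lines (horizontal axis) for each of the 7 checkpoint genes (vertical axis), as the cohort difference with its 95% interval from limma (diamonds) and for H3 and H4 singly (triangles). Only the interval of *Mad1l1*, -1.37 to 0.05, reaches past 0, and H4 lies left of H3 for every gene.

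H4 was below H3 in all 7 genes, by 0.21 in *Bub3* to 1.13 in *Bub1*. It was below H3 in 58.9% of all genes, and the SD of the difference between H4 and H3 over all genes was 0.26. This order was not particular to the checkpoint genes. It held in all 8 passenger and shugoshin genes, 14 of 15 kinetochore genes and all 7 proliferation markers. It also held in all 7 epithelial markers, but their median deviation from the control mean was 0.10 in H3 and -0.01 in H4, so that H4 stood near the controls there. In the anaphase promoting complex it held in 9 of 18 genes, and in the silencing group in 4 of 11. The drop from the control mean was 1.49 times as large in H4 as in H3 for *Bub3*, 1.71 times for *Trip13* and 1.90 times for *Mad1l1*. It was 2.22 to 2.45 times as large for *Bub1b*, *Ttk* and *Mad2l1*, and 3.10 times for *Bub1*. By densitometry H4 had the lower ARID4B protein, 0.15 against 0.19, but on the arrays the higher *Arid4b* mRNA. The study tested the protein of each line against the scrambled line and gives no test of H3 against H4. With 1 array per line the mRNA differences between H3 and H4 have no test either.

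The control lines also kept an order. The scrambled line was the lowest of the 3 control lines in 6 of the 7 genes, all but *Ttk*, and in 34.2% of all genes. Untransduced cells were the highest in 6 of the 7, all but *Bub1*, and in 31.8% of all genes. These steps were small for *Bub1*, *Bub3* and *Mad2l1*, whose control lines spanned 0.06, 0.14 and 0.16, and larger for *Trip13* and *Mad1l1*, whose control lines spanned 0.59 and 0.77. Nor was this order particular to the checkpoint genes. The scrambled line was the lowest control in 40 of the 55 other pathway genes and in all 7 proliferation markers. Untransduced cells were the highest in 33 of those 55 genes and in 5 of the 7 markers. The untransduced line was the only one without puromycin, and that selection and transduction itself cannot be told apart.

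The shape over the 5 lines was compared as the root mean square distance between 2 genes after each was centred on its control mean. Within the checkpoint genes *Ttk* and *Bub1b* were closest, at 0.11, and *Bub1* and *Bub1b* next, at 0.12. *Bub3* and *Trip13* were the farthest apart, at 0.61. The same measure was taken over 13285 other genes. *Kif20a* (0.03), *Aspm* (0.04) and *Cdca2* (0.04) were nearest to *Bub1b*, and *Ccna2* (0.05), *Parpbp* (0.07) and *Plk4* (0.08) to *Ttk*. *Bub1* had *Fancd2* (0.08), *Cdca2* (0.08) and *Kif11* (0.09) as its nearest genes, and *Mad2l1* had *Pimreg*, *Hyls1* and *Cenpa*, at 0.06 to 0.07. *Mdm1*, *Cenpp* and *Cep192* were nearest to *Bub3*, at 0.03 to 0.04. For *Mad1l1* they were *Donson* (0.04), *Cdc6* (0.06) and *Hspa14* (0.07). For *Trip13* they were *Cdc25c* (0.06), *Exo1* (0.09) and *Cenpq* (0.11). The scrambled line was the lowest control line in every one of these nearest genes, whichever checkpoint gene they were nearest to. These distances all rest on the same 5 arrays and carry no test.

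The 7 proliferation markers *Mki67*, *Top2a*, *Pcna*, *Mcm2*, *Mcm6*, *Cdk1* and *Ccna2* moved with the checkpoint genes. All 7 were lower at the unadjusted threshold of limma, where 7.61% of all genes were, with log2 fold changes of -1.17 for *Ccna2* to -0.66 for *Pcna*. Their median deviation from the control mean was -0.46 in H3 and -1.13 in H4, and the controls stood at 0.04 (H5), -0.13 (scrambled) and 0.11 (untransduced), so that the lines stood in the same order as for *Bub1b*, *Bub3*, *Mad1l1*, *Mad2l1* and *Trip13*. When that deviation was subtracted line by line, the remaining differences were smaller and differed in sign. *Trip13* remained at -0.59 in H3 and -0.66 in H4, against -0.24 to 0.11 in the control lines, and *Bub1b* at -0.28 and -0.52, against -0.03 to 0.01. *Ttk* was at -0.24 and -0.45 against -0.18 to 0.10, and *Mad2l1* at -0.08 and -0.18 against -0.04 to 0.05. *Bub1* overlapped the control lines, with -0.08 in H3 and -0.53 in H4 against -0.09 to 0.09. *Mad1l1* was at 0.01 and 0.27, within the control range of -0.28 to 0.26 but for H4, and *Bub3* was above it, at 0.04 and 0.51 against -0.06 to 0.03. Both knockdown lines were thus below all control lines in 4 of the 7 genes, as in 0.431% of all genes, and above them in 1, as in 89% of all genes. The subtraction raises every gene by 0.46 in H3 and by 1.13 in H4. These shares of all genes therefore come from the subtraction itself and are no measure of how unusual the 4 genes are.

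A limma fit of the values after this subtraction, chosen after seeing the data, called 1 of the 7 genes lower and none higher at the unadjusted threshold, where 0.0802% of all genes were lower and 88.2% higher. The gene was *Trip13*, at -0.61 (standard error 0.29, unadjusted p = 0.0338 and adjusted p = 0.0395 from limma). With most genes called higher by the subtraction itself, the adjustment over all genes hardly raised this p. In the deposited values the adjusted p of *Trip13* from limma was 0.292. *Bub1b* had -0.39, *Ttk* -0.34, *Bub1* -0.30 and *Mad2l1* -0.12, and the differences of *Bub3* and *Mad1l1* changed sign, to 0.28 and 0.14, both still below the median of all genes. None of the 55 other pathway genes was lower and 18 were higher. The subtraction moved the median log2 fold change of all genes to 0.84, so that a gene with no difference in the deposited values counts as higher there. In this fit the prior degrees of freedom of limma were infinite, so that all genes were given one pooled standard error, 0.289, and the p-values do not reflect the spread of each gene. The markers themselves moved with the checkpoint genes, so the subtraction does not measure the part of proliferation in the checkpoint gene differences. That part was not tested.

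**Figure D3:**
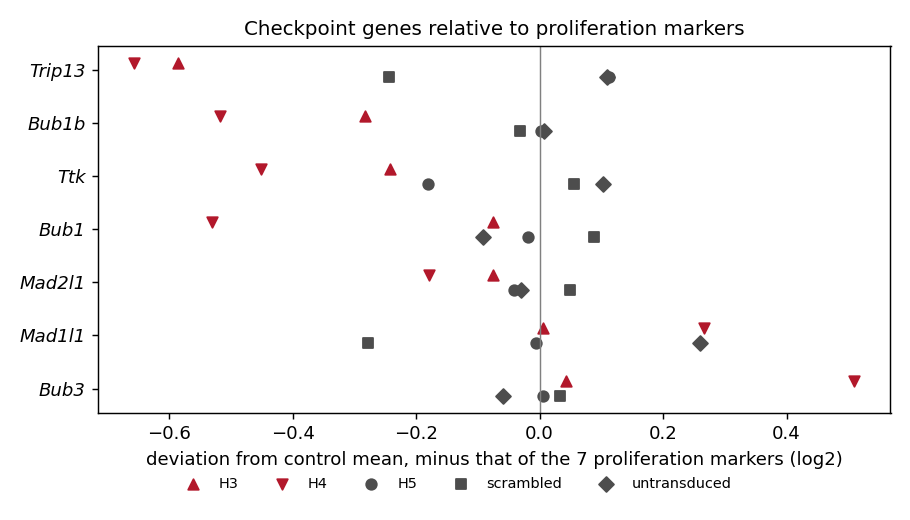
Deviation of each checkpoint gene (vertical axis) from its control mean minus the median deviation of the 7 proliferation markers in the same line (horizontal axis, log2), with 1 point per line, *Arid4b* knockdown lines in red and control lines in grey. *Trip13* stays lowest in both knockdown lines, at -0.59 and -0.66, while *Bub3* in H4 lies at 0.51.

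Of the other genes around the checkpoint, limma put 31 of 55 measured below the control cohort and none above it at the unadjusted threshold, beside 7.61% and 4.34% of all genes, and their median log2 fold change was -0.39. None passed after adjustment over all genes. *Ccnb1*, a substrate of the anaphase promoting complex, had no probe set named for it and was not analysed here. The count of 31 became 12 with an unmoderated equal-variance test, 13 to 28 when 1 line was left out, and 0 after subtraction of the proliferation markers.

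Among the 15 genes that bring the checkpoint proteins to the kinetochore, 9 were lower and the median was -0.73. *Zwilch*, a subunit of the complex that recruits MAD1 and MAD2, was at 8.62 in H3 and 7.74 in H4 against a control mean of 9.41, or -1.22 as log2 fold change (standard error 0.30). *Nuf2*, of the NDC80 complex that binds microtubules, had -1.21 (standard error 0.31), and *Cenpe*, a kinetochore kinesin, had -1.20 (standard error 0.21). *Knl1*, the scaffold on which BUB1 and BUB3 assemble, had -1.05 (standard error 0.27). *Zwint*, *Zw10*, *Spdl1*, *Spc24*, *Mis12* and *Nsl1* did not pass, with log2 fold changes of -0.74 to -0.33.

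All 8 genes of the chromosomal passenger complex, the shugoshins and the mitotic kinases beside them were lower, with a median of -0.96. For *Sgo1*, which protects centromeric cohesion, the log2 fold change was -1.15 (standard error 0.20), for *Plk1* -1.01 (standard error 0.36) and for *Sgo2a* -0.93 (standard error 0.20). Of the passenger complex genes, *Birc5* and *Incenp* were at 50.1% of the control level, *Cdca8* at 52.7% and *Aurkb*, a kinase that corrects faulty attachments, at 53.1%. On the log2 scale *Cdca8* had -0.92 and *Aurkb* -0.91, and *Haspin*, which marks their centromeric site, had -0.53.

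In the target of the checkpoint, the anaphase promoting complex, 8 of 18 genes were lower and the median was -0.23. *Cdc20*, the activator that the checkpoint complex holds, read 9.41 in line H3 and 8.53 in line H4, whereas the controls read 9.94 (H5), 9.69 (scrambled) and 10.05 (untransduced), or -0.93 as log2 fold change (standard error 0.29). *Ube2c*, the ubiquitin-conjugating enzyme of the complex, had -0.64 (standard error 0.20). The core subunit *Cdc27* had -0.43 (standard error 0.05), with H3 at 9.75 and H4 at 9.85, so that H4 was not the lower line there. H4 was below H3 in 9 of these 18 genes, beside 58.9% of all genes. Of the substrates measured, *Ccnb2*, a mitotic cyclin, had -0.96 (standard error 0.30), *Espl1*, the protease separase, had -0.93 (standard error 0.19), and *Pttg1*, its inhibitor securin, had -0.30 (standard error 0.10).

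The silencing group held 11 genes, mainly phosphatase subunit genes whose products oppose the checkpoint kinases. Of these 11, 3 were lower and the median was -0.17. *Usp44* was listed in the group without a claim that it silences the checkpoint. Its values, 5.55 to 5.86, lay below the array medians, and H5 and the scrambled line shared the value 5.82. Log2 fold changes were -0.28 (standard error 0.04) for *Usp44*, a deubiquitinase, -0.20 (standard error 0.07) for the phosphatase gene *Ppp1ca*, and -0.14 (standard error 0.05) for *Mad2l1bp*, whose product works with TRIP13 on MAD2. The regulatory subunit *Ppp2r5e* was at 8.25 in H3 and 8.90 in H4, against 8.80 to 9.15 in the control lines, and did not pass. Of the relatives, *Mad2l2*, a MAD2 family member of translesion synthesis, was at 9.38 in H3 and 9.11 in H4 against 9.12 to 9.16 in the control lines, with a log2 fold change of 0.10 (standard error 0.09). *Rae1*, a relative of BUB3 that acts in mRNA export, had -0.01 (standard error 0.04), and the meiotic gene *Hormad1* had -0.05 (standard error 0.10). For *Rae1* the lines H3, H4 and H5 shared the value 9.75, and for *Mad2l2* H5 and the scrambled line shared 9.16. The small standard error of *Rae1* thus rests in part on a repeated value. The nuclear pore gene *Nup107* was lower, at -0.66 (standard error 0.16).

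**Figure D4:**
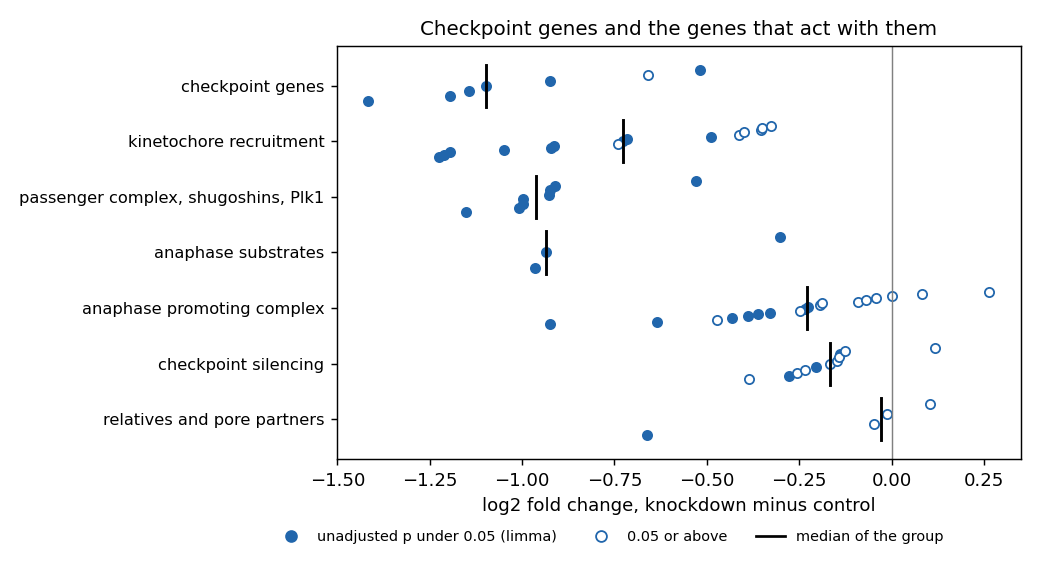
Log2 fold change of the *Arid4b* knockdown over the control cohort (horizontal axis) for each gene (points) of the checkpoint and of 6 groups around it (vertical axis), filled where the unadjusted p from limma was under 0.05; black bars are medians. The checkpoint genes have their median at -1.10, the passenger group at -0.96, and the silencing group at -0.17.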

How the data were processed

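Total RNA of the 5 lines was hybridised by the authors to Affymetrix Mouse Gene 1.0 ST arrays, 1 array per line. The deposited values of 35556 probe sets, normalized by the authors, were read as log2 expression; RMA in Partek is named as the method, with the software version not given in the sources used. The number of arrays limits the precision, and with 1 array a line the p-values reflect line-to-line spread that can be technical in part. Of the probe sets, 21789 had 1 symbol in the platform annotation and 1621 had several and were not used. Symbols were updated through gene IDs to a RefSeq table of GRCm38.p6, in which 21698 were found. Where a gene had several probe sets (999 genes), the brightest on average was kept, giving 19938 genes.

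Cohorts followed the ARID4B level in the labels. They were compared across all genes by the lmFit and eBayes functions of limma 3.58.1, run in R 4.3.3 (two-sided, 3 residual and 1.58 prior degrees of freedom), with Benjamini-Hochberg adjustment over all genes. Calls were counted below 0.05 without adjustment, as in the study. The fit was tested on simulated data. The checkpoint genes, the lists around them and the tests were chosen with earlier results of these data known. The rule named all 7 genes, the 3 genes nearest to each by root mean square distance over the 5 lines among genes in the upper part of the expression range, the 3 largest changes past the threshold in each list, and every measured gene of the substrate, passenger and relative lists; *Knl1* and *Ppp2r5e* and the genes that did not pass were added after their values had been seen. Alternatives were another test, moderation, normalization, filter, probe set rule, array weights, a puromycin term, ARID4B densitometry as predictor, and leaving out each line; subtracting from every gene the median deviation of 7 proliferation markers in each line was added after seeing the data. Figures were drawn with matplotlib 3.10.9.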

Additional observations from a re-analysis of the deposited data

How the results depend on the processing

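Under 14 alternatives for each of the 7 log2 fold changes, 84 of the 98 values kept their side of the unadjusted threshold. Of the rest, 9 no longer passed it and 5 newly passed it. None changed sign, but in many of these settings no sign could have changed. Another test, moderation, filter or probe set rule left the log2 fold changes of these genes as they were. Leaving out 1 line cannot reverse a gene whose knockdown lines both lie below every control line. *Ttk*, *Bub1b* and *Bub3* passed under each of these 14. The largest change came from an alternative chosen after seeing the data, in which the median deviation of the 7 proliferation markers in each line was subtracted from every gene before limma. It left 1 checkpoint gene lower, *Trip13*, and 0 of the other pathway genes, reversed *Bub3* to 0.28 and *Mad1l1* to 0.14, and gave 16 genes lower and 17584 higher over all genes, with the median of all genes at 0.84 and one standard error, 0.289, for every gene. The count of checkpoint genes lower was 4 with an unmoderated equal-variance test, where *Bub1* and *Mad2l1* missed the threshold, and 4 to 6 when 1 line was left out. The 5 new passes were all *Mad1l1*. Adding puromycin selection as a term gave the same 4 genes as leaving out the untransduced line, the only line without selection, since that line is then fitted exactly. The count of other pathway genes lower was 31, against 12 with the unmoderated test, 13 with the puromycin term, and 13 to 28 when 1 line was left out. It was 16 when H4 was left out, 14 when H5 was and 13 when the untransduced cells were. After adjustment over all genes 0 checkpoint genes passed in each of the 14, except 1, *Bub1*, without H4. Without H4 the log2 fold changes of *Ttk*, *Bub1*, *Bub1b* and *Mad2l1* were smaller by over 1.5 times, and without H3 that of *Bub1* was larger by over 1.5 times. In fits with a single knockdown line, that line is assumed to vary like the control lines. Over all genes, 1517 were lower and 866 higher, against 835 and 586 with the unmoderated test, 905 and 382 with array weights, 1011 and 508 with the puromycin term, 776 and 408 without H5, 1986 and 4901 without H4 and 1806 and 1370 without H3; the count of higher genes was 509 with array medians subtracted and 1300 after quantile normalization. No paired analysis was possible because the 5 arrays are 5 different lines, with no pairs between the cohorts. Signal over background was not analysed here, so that the limit of detection is unknown.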

Other observations

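Deposited values repeated exactly between lines in some genes. Of the 19938 genes, 7663 (38.4%) had the same value in at least 2 lines, against none of the 7 checkpoint genes and 6 of the 55 other pathway genes. In *Nsl1*, *Spc24* and *Spdl1*, which act at the kinetochore, H3 and the scrambled line had one and the same value, 8.23, 7.16 and 5.67, while H4 was lower than all other lines, at 7.21, 6.81 and 5.22. None of these 3 genes passed the unadjusted threshold. Over all genes H3 and the scrambled line shared a value in 993.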
